A study of Mus musculus with 12 samples.

Results

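The genes described are 29 members of the cholesterol and fatty acid synthesis pathways controlled by the SREBP transcription factors, in 4 mouse melanoma cell lines. They were taken by symbol from a list of pathway genes and stand among 55471 genes counted. Of them, 19 form the sterol arm, 7 the fatty acid arm and 3 are regulators of both. All 29 were among the 13985 genes with counts high enough to be tested. The data are RNA sequencing counts of 12 libraries, with 3 for each of MeVa2.1.dOVA, MeVa2.1, MeVa2.2.dOVA and MeVa2.2. Every line was untreated and carries the genotype label WT, and the labels give the origin of each as skin and a subcutaneous tumour. MeVa2.1.dOVA is called immune-refractory in the title of the study. What dOVA stands for is not said in the labels, and each dOVA line is set here against the line of the same name without dOVA, called its parent. Nothing says whether replicates 1, 2 and 3 of a line came from separate cultures, or what a replicate number shared by several lines stands for, so p-values cover only how these libraries vary, and that may be technical.

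Cells make cholesterol from acetyl-CoA through mevalonate, farnesyl diphosphate, squalene and lanosterol, and make fatty acids from acetyl-CoA through malonyl-CoA. The SREBP proteins are made as membrane-bound precursors and are released to the nucleus when sterols in the endoplasmic reticulum are low. There they activate genes of both arms, with SREBP-2 (Srebf2) acting mainly on sterol genes and SREBP-1c, one product of Srebf1, mainly on fatty acid genes. Counts per gene do not separate the products of Srebf1. Insig1 holds the precursors back when sterols are plentiful and is itself an SREBP target. Dividing tumour cells draw on both arms for membranes.

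SREBPs bind sterol regulatory elements near the start of a gene, usually beside sites for NF-Y and Sp1, so promoters were searched for these motifs. Promoters of 250 bases before to 50 bases after the start were taken from RefSeq for GRCm38.p6, in which 23 of the 29 genes were matched. Scd1, Scd2, Sqle, Stard4, Fdft1 and Fdps were not matched, so the shares of the sterol and fatty acid promoters leave them out. The motifs searched, on both strands, were TCACNCCAC for the sterol regulatory element, CCAAT for the NF-Y box, GGGCGG for the GC box bound by Sp1 and CACGTG for the E box. The sterol regulatory element pattern was found in 1 of 18 sterol promoters, that of Hmgcs1, and in 0 of 5 regulator and 0 of 5 fatty acid promoters, against 1.24% of all 32851 promoters. The Hmgcs1 promoter is shown because it was the only one with a match. It lies on the plus strand at chr13:119690101-119690400, and the match, in capitals, begins 137 bases before the start. The gene encodes HMG-CoA synthase, the enzyme that commits acetyl-CoA units to mevalonate.

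Hmgcs1 promoter: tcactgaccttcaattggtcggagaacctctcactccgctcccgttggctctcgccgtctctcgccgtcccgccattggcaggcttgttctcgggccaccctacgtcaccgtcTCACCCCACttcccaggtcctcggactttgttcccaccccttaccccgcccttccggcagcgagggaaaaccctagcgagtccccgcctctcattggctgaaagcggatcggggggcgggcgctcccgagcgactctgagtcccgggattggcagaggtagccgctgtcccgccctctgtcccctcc

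CCAAT boxes were in 14 of the 18 sterol promoters (77.8%), 4 of 5 regulator promoters and 2 of 5 fatty acid promoters, against 37.4% of all promoters. GC boxes were in 15 of the 18 sterol promoters (83.3%), 4 of 5 regulator promoters and 1 of 5 fatty acid promoters, against 35.7%. E boxes were in 3 of 18 sterol promoters (16.7%), 1 of 5 regulator and 0 of 5 fatty acid promoters, against 7.15%. Some genes have more than 1 promoter in the table, so promoters of a gene are not independent, and the shares are given as a description with no test.

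Library sizes were 16181816 to 35627069 gene counts and moved with the replicate number, at 17412714 to 19204452 in replicate 2, 26291546 to 35627069 in replicate 3 and 16181816 to 18543632 in replicate 1. Melanocyte lineage genes, the defining markers of the labelled cell type, were low. Dct, Tyrp1 and Mlana were at 0 in 7 of 12 libraries, and the 7 lineage markers summed to 9.07 to 58.3 CPM (the count of a gene scaled to the gene count total of its library). Mitf made up most of the sum in every library but MeVa2.2 replicate 1, which stood apart with the highest sum, 58.3 CPM, and with Dct at 15.9 CPM. Markers of immune cells summed to at most 4.31 CPM over 7 genes, with Cd3e and Nkg7 at 0 throughout. Markers of adipocytes, a lipid-making cell type, summed to at most 3.2 CPM over 6 genes, with Lep and Cidec at 0.

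Per length of exons, Scd2 (126 CPM per kb) and Scd1 (106) had the highest mean level of the 29 genes. They encode stearoyl-CoA desaturases, which put the double bond into saturated fatty acids. They were followed by Acly (42.9), the ATP citrate lyase that makes cytosolic acetyl-CoA, and Srebf2 (28.3). The highest of the sterol arm were Cyp51, the lanosterol demethylase, at 22.6 CPM per kb, and Msmo1, a methylsterol oxidase, at 20.3. The lowest were Idi1, the isopentenyl diphosphate isomerase (0.692), Tm7sf2, a sterol reductase (1.15), and Lpin1, a phosphatidate phosphatase (2.1). Values of some genes are uncertain. Scd1 and Scd2 are similar in sequence, and reads that map equally well to several places were not counted. The exons of Fdps are overlapped over 26.7% of their length by Gm43738 on the same strand, and those of Tm7sf2 over 12.1% by Vps51, and reads in such stretches were not counted.

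**Figure D1:**
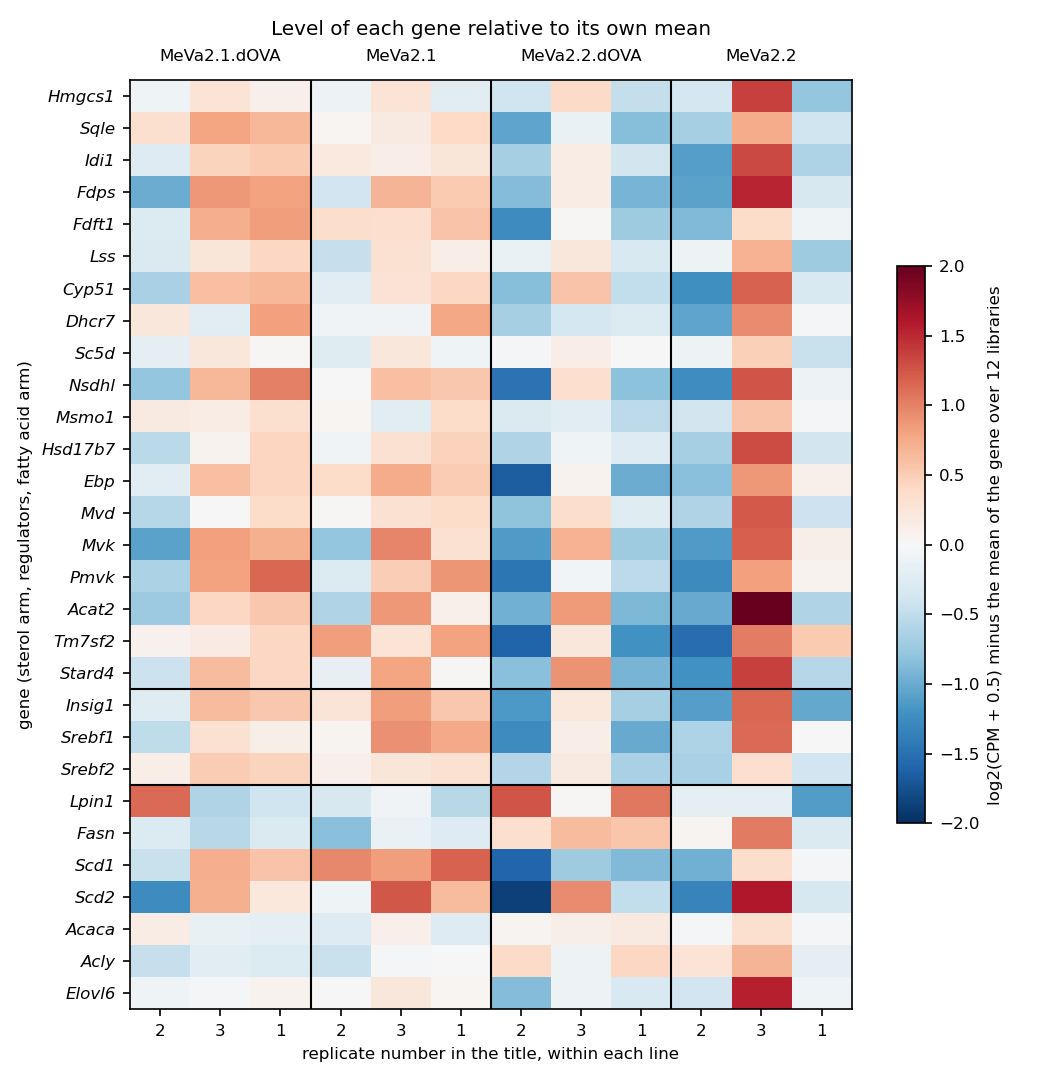
Levels of the 29 genes (rows) in the 12 libraries (columns, by line and replicate number), as log2(CPM + 0.5) minus the mean of the gene over all libraries, with red above and blue below that mean. Rows are split into sterol arm, regulators and fatty acid arm. The sterol arm is pale or blue in replicate 2 of most lines and deep red in MeVa2.2 replicate 3, which was the highest of 12 libraries for 16 of 19 sterol genes.

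With the line alone in the model, few of these genes were called between lines. Over the 4 comparisons of a line with another, that model made 2 calls, both between the dOVA lines. With the replicate number held too, 7 members were called higher in MeVa2.1.dOVA than in MeVa2.2.dOVA, beside 1737 of all genes higher. They were Sqle, Fdft1, Ebp, Pmvk, Srebf1, Srebf2 and Scd1. That fit also called Scd1 between the parents and Srebf1 between MeVa2.2.dOVA and MeVa2.2. Same-numbered libraries of the dOVA lines were not all paired. The 2 calls of the line model were Sqle and Scd1, higher in MeVa2.1.dOVA than in MeVa2.2.dOVA. Sqle, the squalene epoxidase that is one of the slow steps of sterol synthesis, had 163, 129 and 179 CPM in MeVa2.1.dOVA (replicates 1, 2 and 3). In the MeVa2.2.dOVA libraries it had 56.8, 49.2 and 93.8 CPM. All 3 MeVa2.1.dOVA libraries were above all 3 of MeVa2.2.dOVA (log2 fold change 1.28, SE 0.34, edgeR quasi-likelihood test with Benjamini-Hochberg adjustment over all genes, adjusted p = 0.0322). Scd1 was at 654, 323 and 733 CPM in MeVa2.1.dOVA, against 238, 146 and 269 in MeVa2.2.dOVA. Here too the lines did not overlap (1.42, SE 0.35, adjusted p = 0.0248). Both calls were lost without replicate 1 or 3 of MeVa2.1.dOVA or without replicate 1 or 2 of MeVa2.2.dOVA. Each of these left 0 members called and 796 to 946 of all genes, where the full fit called 1574. Without MeVa2.2.dOVA replicate 3, 5 members and 2578 of all genes were called.

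These 2 of 29 compare with 11.3% of all genes called there and 6.45% called higher, a share near that of the members. All 19 sterol genes had a positive fold change between MeVa2.1.dOVA and MeVa2.2.dOVA, from 0.03 to 1.28 with a median of 0.60, beside a median of 0.01 over all genes. Without MeVa2.2.dOVA replicate 3 the sterol median was 1.17, in a fit that kept MeVa2.1.dOVA replicate 3. Between libraries of the same number, the median difference of the sterol arm was 1.34 for replicate 1, 0.41 for replicate 2 and 0.13 for replicate 3 on the log2 scale, so its size depended on the replicate. Summed proliferation markers moved alongside, with sums, in order of replicate number, of 1650, 639 and 1640 CPM for MeVa2.1.dOVA, against 574, 595 and 2010 for MeVa2.2.dOVA. Summed fibroblast markers were at 1540, 920 and 2240 CPM in MeVa2.1.dOVA, against 337, 323 and 2280 in MeVa2.2.dOVA. Their part in the difference was not tested. The regulators were positive too, at 0.84 for Insig1, 0.72 for Srebf2 and 0.64 for Srebf1, none of them called in this fit. The fatty acid arm had a median of -0.14. Of all members, 5 were higher in MeVa2.1.dOVA without overlap, beside 14% of all genes, and 2 lay lower without overlap, beside 16%. The 2 were Fasn, the fatty acid synthase, at 162, 163 and 135 CPM in MeVa2.1.dOVA against 291, 250 and 306 in MeVa2.2.dOVA, and Acly, at 182, 160 and 188 CPM against 293, 288 and 204. Neither was called (Fasn -0.84, SE 0.30, adjusted p = 0.0939, and Acly -0.55, SE 0.24, adjusted p = 0.167).

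Between MeVa2.1.dOVA and MeVa2.1, 0 of 29 members were called by edgeR, beside 0.486% of all genes. An unadjusted p under 0.05 was found for 0 members, beside 1567 of all 13985 genes. DESeq2 called 0 members, beside 394 of all genes. A fit that also held the replicate number called 0 as well, beside 2.6% of all genes. There Scd1, Srebf1 and Scd2 had an unadjusted p under 0.05, beside 2632 of all genes. Srebf1 was at 81.7, 52.7 and 93.1 CPM in MeVa2.1.dOVA and 128, 78.2 and 143 in MeVa2.1 (-0.62, SE 0.45, adjusted p = 0.663, and with the replicate number held -0.63, SE 0.22, adjusted p = 0.170). It lay lower in MeVa2.1.dOVA in each pair of the same number. The sterol median was 0.06 and the fatty acid median -0.12, with fold changes from -0.65 to 0.59. Scd1 was the only member whose libraries did not overlap, beside 10.4% of all genes lower without overlap. It was at 654, 323 and 733 CPM in MeVa2.1.dOVA and 1000, 856 and 789 in MeVa2.1 (-0.65, SE 0.35, adjusted p = 0.532).

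Between MeVa2.2.dOVA and MeVa2.2, 0 of 29 were called by the line model in edgeR, beside 1.99% of all genes. In that fit 3 had an unadjusted p under 0.05, beside 2298 of all 13985 genes. DESeq2 called 0 members too, beside 974 of all genes. All 19 sterol genes had a negative fold change, with a median of -0.63. Without MeVa2.2 replicate 3 the median was 0.19, but that fit kept replicate 3 of MeVa2.2.dOVA, so the lines no longer held the same numbers. Between libraries of the same number the median was -0.37 for replicate 1, 0 for replicate 2 and -0.87 for replicate 3. In these pairs 6, 9 and 0 of the 19 genes were positive, so the difference depended on the replicate. With the replicate number held the median was -0.48, with 18 of 19 negative. MeVa2.2.dOVA enters this comparison and the one of the dOVA lines, so their opposite signs are not separate observations. Srebf1 was at 37.2, 31.2 and 82.8 CPM in MeVa2.2.dOVA and 75.2, 48.8 and 166 in MeVa2.2 (-0.98, SE 0.45, adjusted p = 0.309). It lay lower in MeVa2.2.dOVA in each pair of the same number. With the replicate number held, edgeR called it lower (-0.93, SE 0.22, adjusted p = 0.0348), beside 684 of all genes lower. Same-numbered libraries of these lines were not all paired. Lpin1, whose product makes diacylglycerol and also acts as a coactivator, was the only member without overlap. It was at 37.2, 42.9 and 18.0 CPM in MeVa2.2.dOVA and 7.93, 15.4 and 15.6 in MeVa2.2 (1.32, SE 0.50, adjusted p = 0.222), beside 9.83% of all genes higher without overlap.

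Between the parent lines MeVa2.1 and MeVa2.2, 0 of 29 were called by edgeR, beside 4.48% of all genes. There 2 had an unadjusted p under 0.05, beside 2462 of all 13985 genes. DESeq2 called 1 member, beside 1207 of all genes. Scd1 was the one member without overlap, beside 12% of all genes higher without overlap, at 1000, 856 and 789 CPM in MeVa2.1 against 434, 225 and 560 in MeVa2.2 (1.14, SE 0.35, adjusted p = 0.103). With the replicate number as a block it was called (1.26, SE 0.24, adjusted p = 0.0102), the 1 member among 9.51% of all genes in that fit. The sterol median was -0.02, and 0.89 without MeVa2.2 replicate 3, a fit that kept MeVa2.1 replicate 3. With the replicate number held it was 0.18. Same-numbered libraries differed by medians of 0.69, 0.70 and -0.75 in replicates 1, 2 and 3, so the third turned against the other pairs. For the difference between the dOVA differences, 0 members were called by edgeR, beside 0.0858% of all genes, and 0 by DESeq2, beside 272 of all genes. In edgeR, Sqle alone of the members had an unadjusted p under 0.05 (1.07, SE 0.47, adjusted p = 0.559), beside 1187 of all genes. The sterol median there was 0.65, and -0.17 without MeVa2.2 replicate 3, a fit that kept replicate 3 of the other lines. With the replicate number held it was 0.49.

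Each replicate number occurs once in every line, so the numbers were compared in a model that also holds the line. Counts of the line model come from a fit without the number and are not on equal terms with these. With both terms held, more members were called between replicates 2 and 3 than in any comparison of lines, at most 7. Replicate 2 was lower than replicate 3 in 15 of 29 members and higher in 0, beside 25.4% of all genes called, 13.8% lower (edgeR quasi-likelihood test). Over all genes, 1620 were higher and 1927 lower in replicate 2, and with library totals in place of TMM factors 1136 were higher and 2301 lower. The members lower in replicate 2 were 11 of 19 sterol genes, 2 of 3 regulators and 2 of 7 fatty acid genes. All 19 sterol genes had a negative fold change, from -1.95 to -0.12 with a median of -1.0, where the median of all genes was -0.01 and that of the fatty acid arm -0.37. Within each of the 4 lines replicate 2 was below replicate 3 for 14 of 19 sterol genes, 3 of 3 regulators and 2 of 7 fatty acid genes, beside 25% of all genes. The libraries of the 2 numbers did not overlap in 13 of 29 members, all lower in replicate 2, beside 11% of all genes.

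Mvk, the mevalonate kinase, showed it most evenly. It was at 6.26, 7.76, 5.97 and 5.95 CPM in replicate 2 of MeVa2.1.dOVA, MeVa2.1, MeVa2.2.dOVA and MeVa2.2, against 24.6, 27.5, 22.4 and 31.9 CPM in replicate 3 of the same lines. Every replicate 3 library was far above every replicate 2 library, whatever the line (log2 fold change -1.94, SE 0.24, adjusted p = 0.00465). Acat2, the cytosolic acetoacetyl-CoA thiolase that opens the pathway, was at 6.32, 6.87, 5.28 and 5.06 CPM in replicate 2, against 14.5, 20.1, 19.7 and 44.8 in replicate 3 (-1.95, SE 0.40, adjusted p = 0.00894). The numbers did not overlap, and MeVa2.2 replicate 3 was more than double any other library. Pmvk, the next kinase after Mvk, was at 11.2, 14.5, 6.13 and 6.95 CPM in replicate 2, against 31.0, 25.0, 16.9 and 31.4 in replicate 3 (-1.40, SE 0.25, adjusted p = 0.00538). It did not overlap either.

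Further down the mevalonate branch, Mvd, the mevalonate diphosphate decarboxylase, was lower (-0.97, SE 0.31, adjusted p = 0.0464), and Fdps, the farnesyl diphosphate synthase, was lower by more (-1.62, SE 0.36, adjusted p = 0.0120). Hmgcs1 and Idi1 were not called. Hmgcs1 was at 79.1, 78.0, 63.2 and 65.3 CPM in replicate 2 and 102, 102, 109 and 218 in replicate 3, without overlap (-0.79, SE 0.28, adjusted p = 0.0609). Idi1 had few reads, at 0.737 to 2.55 CPM in replicate 2 and 2.41 to 6.16 in replicate 3 (-1.16, SE 0.48, adjusted p = 0.0965).

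At the squalene steps, Fdft1, the squalene synthase, was at 45.3, 69.6, 22.7 and 29.4 CPM in replicate 2, against 91.3, 69.1, 55.4 and 70.5 in replicate 3 (-0.81, SE 0.22, adjusted p = 0.0242). In MeVa2.1 the numbers were level, and in the other lines replicate 2 was lower. Sqle was lower by -0.68 (SE 0.21, adjusted p = 0.0401). Lss, which closes squalene epoxide to lanosterol, lay below replicate 3 in all 4 lines without overlap but was not called (-0.54, SE 0.24, adjusted p = 0.118).

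Among the steps from lanosterol to cholesterol, Cyp51, Nsdhl and Ebp were lower. Cyp51 was at 56.5, 77.2, 49.1 and 38.0 CPM in replicate 2, against 136, 109, 132 and 203 in replicate 3 (-1.35, SE 0.30, adjusted p = 0.0116). Nsdhl, a sterol dehydrogenase of C4 demethylation, was at 15.6, 26.8, 9.39 and 11.1 CPM in replicate 2 and 42.7, 40.9, 34.1 and 65.2 in replicate 3 (-1.56, SE 0.33, adjusted p = 0.00972). Both separated the numbers in all lines. Ebp, the sterol isomerase, was lower by -1.10 (SE 0.24, adjusted p = 0.0105), with libraries that overlapped between lines. The remaining 5 enzymes, Msmo1, Hsd17b7, Tm7sf2, Sc5d and Dhcr7, were not called, with fold changes from -1.0 (Tm7sf2, SE 0.54) to -0.12 (Msmo1, SE 0.21). Sc5d, the sterol desaturase before Dhcr7, did not overlap but had a small fold change and no call (-0.33, SE 0.15, adjusted p = 0.125). Stard4, a carrier that moves cholesterol between membranes, was at 17.1, 20.5, 12.7 and 9.74 CPM in replicate 2 and 36.2, 40.3, 43.5 and 60.7 in replicate 3 (-1.57, SE 0.31, adjusted p = 0.00745).

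Of the regulators, Srebf1 and Insig1 were lower in replicate 2. Srebf1 was at 52.7, 78.2, 31.2 and 48.8 CPM in replicate 2, against 93.1, 143, 82.8 and 166 in replicate 3 (-1.15, SE 0.20, adjusted p = 0.00501). Its libraries did not overlap. Insig1 was at 29.6, 41.7, 15.5 and 16.1 CPM in replicate 2, against 54.4, 62.8, 40.6 and 78.1 in replicate 3 (-1.26, SE 0.31, adjusted p = 0.0176), and only 1 replicate 3 library was below the highest of replicate 2. Srebf2 did not overlap but was not called, at 125 to 214 CPM in replicate 2 and 221 to 279 in replicate 3 (-0.49, SE 0.17, adjusted p = 0.0536).

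The fatty acid arm was divided. Scd2 had the largest fold change of all members, at 226, 510, 148 and 214 CPM in replicate 2 and 888, 1280, 1040 and 1640 in replicate 3 (-2.21, SE 0.27, adjusted p = 0.00465). All replicate 3 libraries were above all of replicate 2. Its neighbour Scd1 was lower by -0.73 (SE 0.21, adjusted p = 0.0306), and in MeVa2.1 it was higher in replicate 2, at 856 CPM against 789 in replicate 3. The enzymes that make the saturated chain were not called. Acly was at 160, 161, 288 and 265 CPM in replicate 2 and 188, 216, 204 and 353 in replicate 3 (-0.08, SE 0.21, adjusted p = 0.807). Acaca, the acetyl-CoA carboxylase, had a fold change of -0.04 (SE 0.14, adjusted p = 0.869) and Fasn one of -0.37 (SE 0.24, adjusted p = 0.265). Elovl6, which lengthens palmitate, was below replicate 3 in all 4 lines without a call (-0.71, SE 0.30, adjusted p = 0.106). Lpin1 had the 1 positive fold change of the 29 (0.74, SE 0.36, adjusted p = 0.151), and lay lower in replicate 2 than 3 in MeVa2.1 and MeVa2.2 alone.

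**Figure D2:**
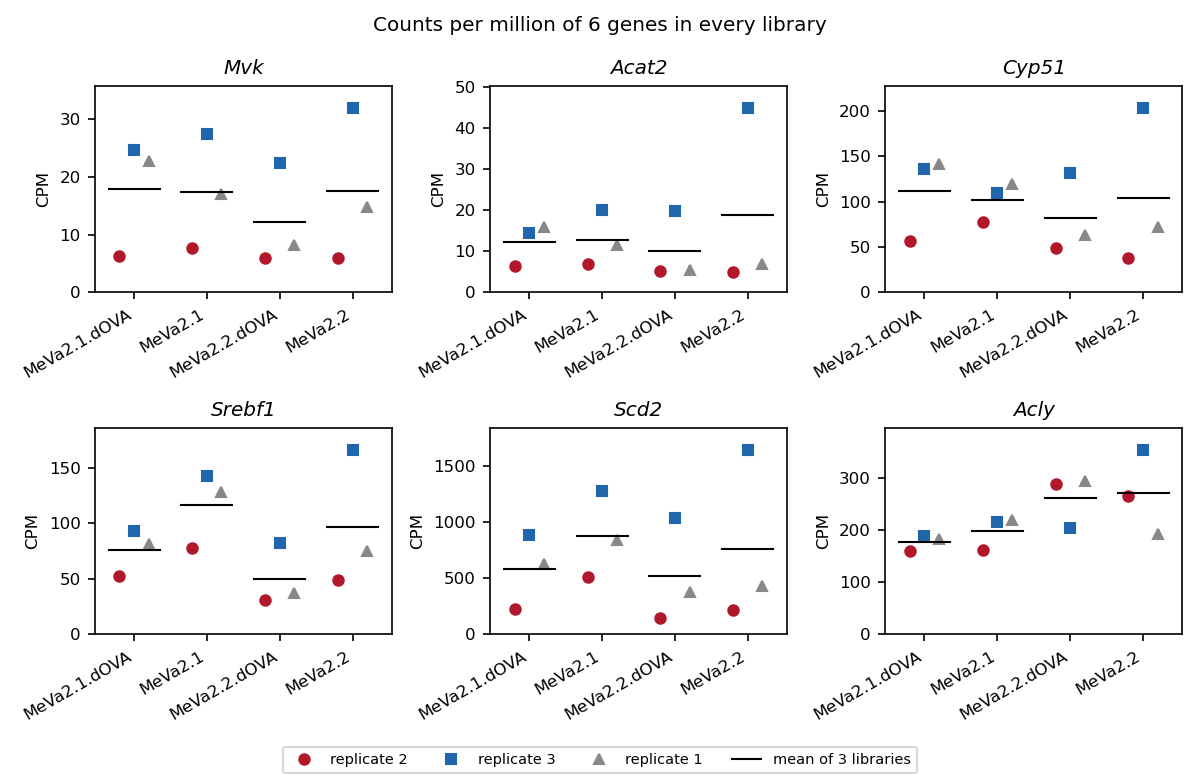
CPM (linear axis from 0) of Mvk, Acat2, Cyp51, Srebf1, Scd2 and Acly in every library, by line, with replicate 2 as red circles, replicate 3 as blue squares, replicate 1 as grey triangles and the mean of 3 libraries as a line. Replicate 2 is the lowest library of each line for Mvk, from 5.95 to 7.76 CPM, and replicate 3 lies at 22.4 to 31.9, while Acly shows no such order.

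Replicate 1 lay between the other numbers for many sterol genes in the fit over all lines, but its place differed by line. It was the highest library of its line for 12 of 19 sterol genes in MeVa2.1.dOVA and 9 in MeVa2.1. In MeVa2.2.dOVA it was highest for 1, and in MeVa2.2 for 0. Against replicate 1, replicate 2 was lower in 2 members, Mvk (-1.14, SE 0.24, adjusted p = 0.0443) and Pmvk (-1.28, SE 0.24, adjusted p = 0.0403), beside 2.83% of all genes called and 1.9% lower. Over all genes, 130 were higher and 266 lower, and with library totals alone 102 and 480. The sterol median was -0.52. Both calls were lost without replicate 1, 2 or 3 of MeVa2.1.dOVA, or without replicate 1 of MeVa2.1. They were also lost without replicate 2 of MeVa2.2.dOVA, or replicate 1 or 2 of MeVa2.2. Each of these fits called 1 to 31 of all genes, where the full fit called 396. Leaving out MeVa2.1 replicate 2 gave 6 members beside 1103 of all genes, and leaving out its replicate 3 gave 4 beside 548. Replicate 3 was not called against replicate 1 in any member by edgeR, beside 0.636% of all genes. There 10 members had an unadjusted p under 0.05, beside 2624 of all 13985 genes. DESeq2 called 6 members, all higher, where it called 910 of all genes, 435 of them higher. A joint test for any difference among the 3 numbers called 11 of 29, beside 20.1% of all genes, of which 8 were sterol genes, 2 regulators and 1 a fatty acid gene, Scd2. It called 5 without replicate 2 of MeVa2.1.dOVA, replicate 3 of MeVa2.2.dOVA or replicate 2 of MeVa2.2, beside 874, 1845 and 911 of all genes. It called 7 without replicate 1 of MeVa2.1 or replicate 2 of MeVa2.2.dOVA, beside 1279 and 1555, where the full fit called 2808.

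The count of 15 for replicate 2 against 3 was 10 to 19 when any 1 library was left out, beside 1691 to 3918 of all genes called. Cyp51, Mvk, Pmvk, Acat2, Stard4, Srebf1 and Scd2 were called under each of 21 alternatives, and Fdps, Nsdhl and Ebp under each that left out 1 library. Sqle, Fdft1, Mvd, Insig1 and Scd1 were each lost under 3 to 11 of the 21. Without the line MeVa2.2 the count was 8, beside 794 of all genes lower in replicate 2.

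**Figure D3:**
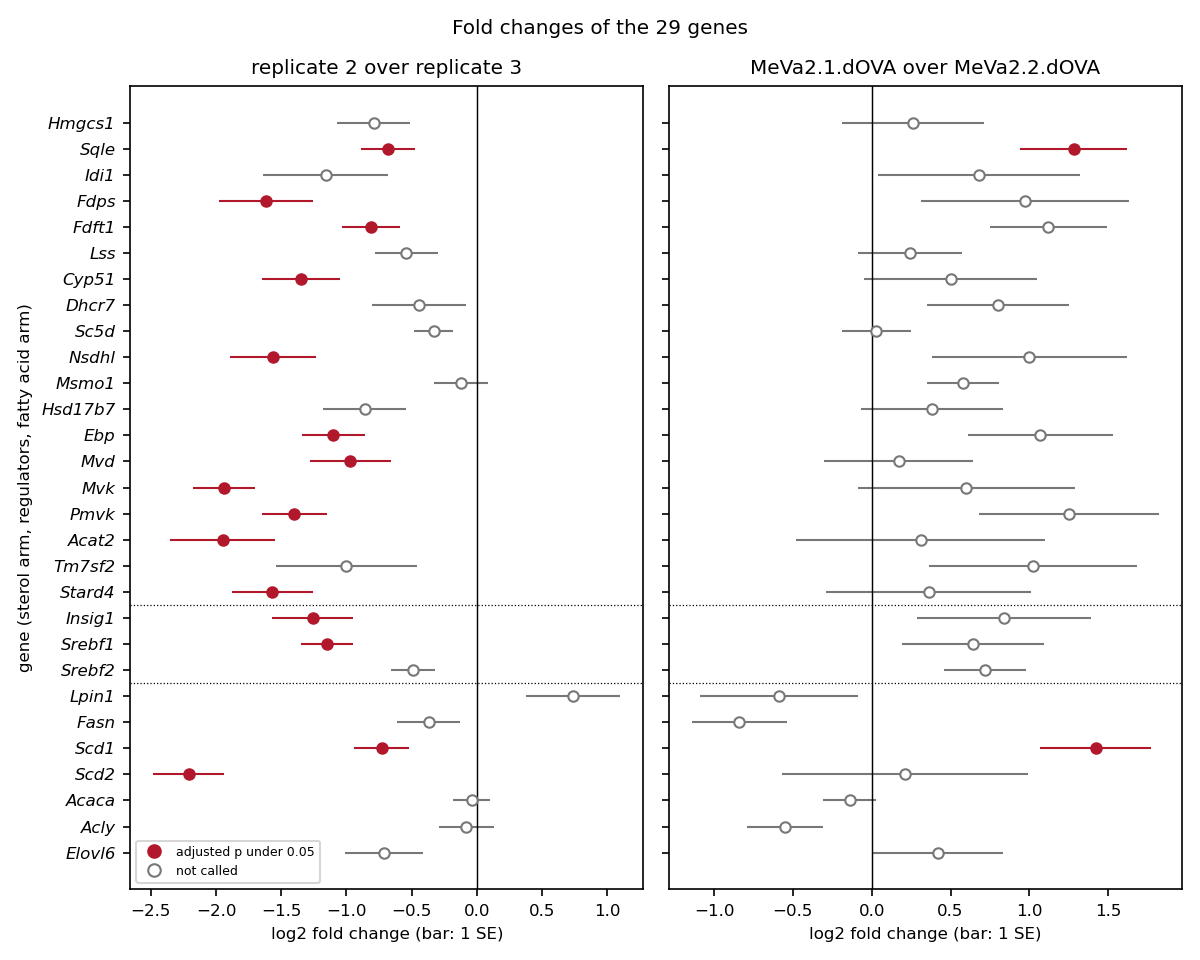
Log2 fold change of each gene with bars of 1 SE, for replicate 2 over replicate 3 (left) and MeVa2.1.dOVA over MeVa2.2.dOVA (right). Filled red points have an adjusted p under 0.05, which holds for 15 genes on the left, all below 0, and for Sqle and Scd1 on the right. The left fit holds the line and the replicate number, and the right fit the line alone.

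The spread of each gene over the 12 libraries was divided into shares between lines, between replicate numbers and the rest, as a description without a test. For the sterol arm the median share between replicate numbers was 51.9% and that between lines 13.8%, where the medians over all genes were 23.8% and 44.9%. The fatty acid arm had medians of 17.7% between replicate numbers and 45.9% between lines, and the regulators 46.5% and 42.8%. The share between replicate numbers was the larger in 14 of 19 sterol genes, 2 of 3 regulators, 2 of 7 fatty acid genes and 34.5% of all genes. Mvk was at one end, with 85.4% between replicate numbers and 6.8% between lines. Scd1 was at the other, with 17.7% between replicate numbers and 75.2% between lines. Sqle (59.9% between lines), Fasn (58.9%), Fdft1 (50.9%) and Acly (50.8%) also varied more with the line.

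**Figure D4:**
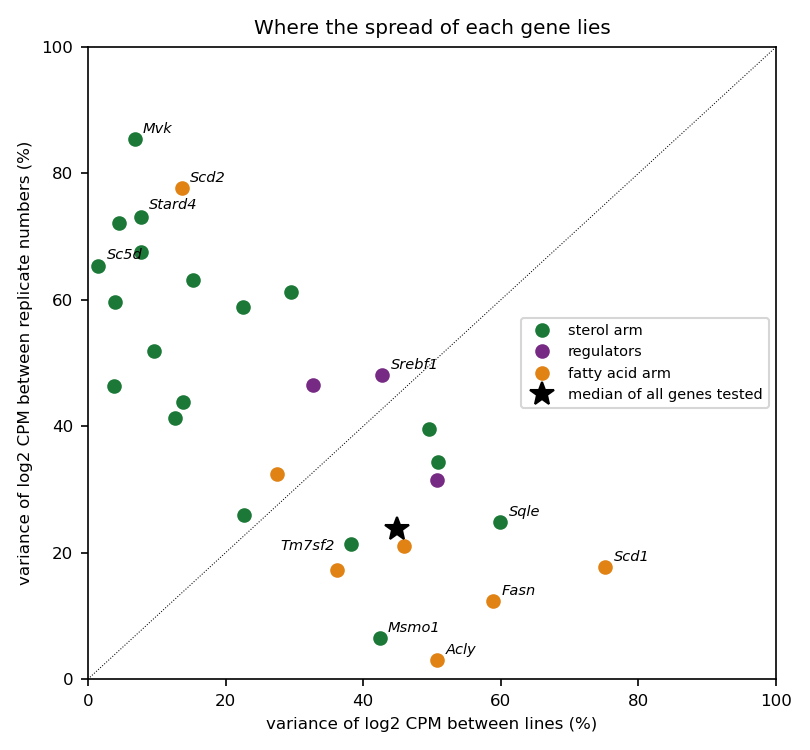
Share of the variance of log2 CPM between replicate numbers (vertical, %) and between lines (horizontal, %) for each of the 29 genes, coloured by arm, with a star at the medians of all genes tested and a dotted line where both shares are equal. Most sterol genes lie above the dotted line and most fatty acid genes below it, and Mvk is highest at 85.4%.

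One library, MeVa2.2 replicate 3, stood out. It was the highest of 12 for 16 of 19 sterol genes, 2 of 3 regulators and 5 of 7 fatty acid genes. The lowest of 12 was MeVa2.2 replicate 2 for 8 sterol genes and MeVa2.2.dOVA replicate 2 for 7. The mean log2(CPM + 0.5) of the sterol arm was 5.80 in MeVa2.2 replicate 3 and 3.87 and 4.47 in replicates 2 and 1 of the same line. In the other lines it was 4.37, 5.17 and 5.29 in replicates 2, 3 and 1 of MeVa2.1.dOVA, 4.65, 5.12 and 5.11 in MeVa2.1, and 3.85, 4.95 and 4.12 in MeVa2.2.dOVA. The highest library of a line was a median of 4.47 times the lowest for sterol genes in MeVa2.2, 2.31 times in MeVa2.2.dOVA, 1.99 times in MeVa2.1.dOVA and 1.53 times in MeVa2.1. The lines that share the name MeVa2.1 were the more uniform in these genes. Without MeVa2.2 replicate 3, 11 members were called lower in replicate 2 than 3, beside 1539 of all genes.

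Genes of proliferation moved with the replicate number as well. All 10 listed, among them Mki67 and Top2a, were lower in replicate 2 than in replicate 3 (median -1.46), and they summed to 478 to 748 CPM in replicate 2, 1640 to 2360 in replicate 3 and 574 to 1650 in replicate 1. Of the 7 fibroblast markers 2 were lower in replicate 2, and they summed to 323 to 2010 CPM in replicate 2 and 2240 to 2380 in replicate 3, most of it from Col1a1 and Col3a1, with Pdgfra at 10.9 to 200 CPM and Thy1, Dcn and Lum at 29.8 or less in every library. Of the 7 melanocyte lineage markers 5 were tested and 2 were lower in replicate 2, at sums of 9.07 to 20 CPM in replicate 2 and 11.9 to 21.1 in replicate 3. The part of these lists in the result was not tested, and in bulk libraries fewer cells of a type and less RNA per cell cannot be told apart. Replicate 3 libraries were the deepest. With all libraries thinned to the lowest total, 14 members were lower in replicate 2 than 3, all among the 15, beside 1799 of all genes. Mitochondrially encoded mRNAs, a sign of RNA quality, summed to 9170 to 11900 CPM in replicate 2 and 8170 to 11100 in replicate 3, with 0 of 4 tested called. Of the 7 listed, mt-Co3 and mt-Atp6 were at 0 in every library and mt-Co2 at 0.054 CPM or less. The sum thus rests on the 4 tested, which limits it as a sign of RNA quality. Of the immune and the adipocyte markers, 1 each had counts to test and was not called.

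Other genes of the pathway were examined as 4 lists. Of 21 tested genes of sterol synthesis and uptake, 7 were lower and 2 higher in replicate 2 than in replicate 3, beside 13.8% lower and 11.6% higher over all genes. Mmab, an adenosyltransferase of vitamin B12, was at 6.72, 14.8, 5.81 and 6.74 CPM in replicate 2, against 20.5, 19.4, 19.5 and 16.2 in replicate 3 (-1.17, SE 0.26, adjusted p = 0.0129). Lbr, a nuclear membrane protein with sterol reductase activity, was lower by less (-0.52, SE 0.12, adjusted p = 0.0150). Lrp8, a lipoprotein receptor, and Erg28 were lower too. Npc1, which exports cholesterol from lysosomes, was higher, at 254, 310, 200 and 312 CPM in replicate 2 and 114, 111, 118 and 81.6 in replicate 3 (1.42, SE 0.18, adjusted p = 0.00465). The electron donor Por was also higher (0.66, SE 0.19).

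Of 31 tested genes of fatty acid and glycerolipid synthesis, 9 were lower and 3 higher in replicate 2 than in replicate 3, beside the same 13.8% and 11.6%. Acss2, the acetyl-CoA synthetase, was at 5.51, 10.9, 1.71 and 2.63 CPM in replicate 2 and 36.6, 21.5, 12.9 and 12.2 in replicate 3 (-2.09, SE 0.35, adjusted p = 0.00491). Fads2, a desaturase of polyunsaturated fatty acids, was at 90.3, 137, 34.4 and 42.0 CPM in replicate 2 and 405, 356, 172 and 206 in replicate 3 (-1.95, SE 0.24, adjusted p = 0.00465). In both the replicate 3 libraries were above all of replicate 2. Fads1, Slc25a1, Mcat, Elovl5, Tecr, Acsl5 and Agpat2 were the others lower, with fold changes from -0.88 to -0.44. Those higher were Elovl7, Dgat2, which makes storage fat, and Pnpla2, the lipase that breaks it down (0.83, SE 0.15).

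Of 13 genes that process or turn over SREBPs, 2 were called between replicates 2 and 3, a smaller share than the 25.4% over all genes. Mbtps2, the site-2 protease that frees SREBP, was higher in replicate 2 (0.55, SE 0.13, adjusted p = 0.0169), and Rnf145, a ubiquitin ligase, was lower (-0.65, SE 0.20, adjusted p = 0.0371). Of 14 tested genes of sterol efflux, esterification and the sterol-sensing LXR receptors, 5 were lower and 5 higher, beside 13.8% and 11.6% of all genes. Abca1, the cholesterol exporter, was at 120, 76.3, 71.4 and 64.7 CPM in replicate 2 and 151, 235, 243 and 218 in replicate 3 (-1.32, SE 0.24, adjusted p = 0.00576). Abcg1, another exporter, was at 0 in all 4 replicate 2 libraries and at 0 to 3.08 CPM in replicate 3. Mylip, Lpcat3 and Cyp46a1 were lower too. Soat1, which esterifies cholesterol, was at 172, 219, 281 and 248 CPM in replicate 2 and 134, 120, 158 and 110 in replicate 3 (0.88, SE 0.15, adjusted p = 0.00491). Nceh1, which splits cholesteryl esters, was higher (0.72, SE 0.12), as were Apoe (1.61, SE 0.37), Soat2 and Abcg4.

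Between lines few of these genes were called by the line model, and none in the lists of SREBP processing and of efflux. With the replicate number as a block, MeVa2.1 against MeVa2.2 also had calls for Insig2, a relative of Insig1 (0.62, SE 0.14, adjusted p = 0.0228), Elovl5 (0.66, SE 0.16), Fads2 (1.07, SE 0.27) and Pcyt2 (-1.57, SE 0.36). Pcyt2, of phosphatidylethanolamine synthesis, was lower in MeVa2.1.dOVA, at 1.79, 1.67 and 1.55 CPM in replicates 1, 2 and 3, than in MeVa2.1, at 14.5, 6.87 and 7.10 (-2.51, SE 0.44, adjusted p = 0.0371). It was also lower than in MeVa2.2.dOVA, at 20.4, 11.6 and 30.5 CPM (-3.59, SE 0.46, adjusted p = 5.82e-04). Cyb5r3, a reductase that feeds electrons to desaturases, was higher in MeVa2.1.dOVA, at 919, 991 and 925 CPM, than in MeVa2.2.dOVA, at 301, 265 and 439 (1.54, SE 0.23, adjusted p = 0.0018). Lpin2, a relative of Lpin1, was higher in MeVa2.1.dOVA than in MeVa2.2.dOVA (0.76, SE 0.16, adjusted p = 0.0127) and in MeVa2.1 than in MeVa2.2 (0.72, SE 0.16, adjusted p = 0.0298). Gramd1b, which carries cholesterol from the plasma membrane, was higher in MeVa2.1 than in MeVa2.2 (1.72, SE 0.30, adjusted p = 0.00737). A fit that held the replicate number called 10 of 31 fatty acid and glycerolipid genes higher and 2 lower in MeVa2.1.dOVA than in MeVa2.2.dOVA. Of 21 sterol synthesis and uptake genes 4 were higher there, beside 1737 higher and 1342 lower of all genes. In MeVa2.2.dOVA against MeVa2.2 that fit called 2 sterol synthesis, 1 fatty acid and 1 efflux gene, all lower, beside 684 lower and 400 higher. Same-numbered libraries of these comparisons were not all paired.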

How the data were processed

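RNA was made into stranded mRNA libraries, per the labels' protocols. Each of the 12 deposited files lists genes with their read count, made with STAR 2.6.0c and HTSeq 0.10.0 on GRCm38, per the submitters' processing notes, which also name DESeq2 1.30.1. The 5 tally lines of each file, 35.8% to 40% of its reads, were left out, among them reads of low mapping quality (29.9% to 33%). Symbols came from a name table, and positions and exon lengths from GENCODE M21.

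Members, lists, tests and named genes were chosen with earlier results of these data known. CPM are over all genes, with no other scaling. Counts were filtered (filterByExpr), scaled by TMM and fitted with edgeR 4.0.16 (glmQLFit on all 12 libraries, in R 4.3.3, 8 residual degrees of freedom for lines). The line was the model's term, plus the replicate number where numbers were compared. Calls had an adjusted p under 0.05 over 13985 genes, and the SE is that implied by the F statistic. DESeq2 1.42.0 was an alternative. Scripts were tested on simulated data. All 29 members may be named, and in other lists every called gene, except that some genes are not reported here. No 2 replicates of a line agreed within counting noise (lowest chi-square per degree of freedom 27.35).

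Same-numbered libraries were checked for pairing by the correlation of their deviations from the line means, which for replicates 1, 2 and 3 was 0.504, 0.511 and 0.56 for MeVa2.1.dOVA with MeVa2.1, and 0.409, 0.416 and 0.359 for MeVa2.1 with MeVa2.2. These exceeded 0.1, so for these comparisons values with the replicate number as a block stand beside those of the line model where a call or a count differs.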

Additional observations from a re-analysis of the deposited data

How the results depend on the processing

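Counts of members called kept within 1.5 times of the reported value under the alternatives run, except as follows. With DESeq2, 1 member was called for MeVa2.1 against MeVa2.2, 4 for MeVa2.1.dOVA against MeVa2.2.dOVA (3 higher, 1 lower), 5 for replicate 2 against 1 and 6 for replicate 3 against 1, where it called 1852 and 910 of all genes in the last 2. With no filter on low counts these were 1 for the parents, 18 for any difference among numbers, 6 for replicate 2 against 1 and 7 for replicate 3 against 1. Over all genes that setting called 969, 3574, 1457 and 756. Without the lines MeVa2.1.dOVA, MeVa2.2.dOVA and MeVa2.2, any difference gave 5, 5 and 1, beside 633, 1341 and 77 of all genes. Replicate 2 against 1 gave 0 without MeVa2.1.dOVA, MeVa2.1 or MeVa2.2, beside 0, 24 and 2 of all genes. Replicate 2 against 3 gave 8 without MeVa2.2, beside 1313. Leaving out 1 library gave 0 to 1 for the parents, 0 to 5 for the dOVA lines and 5 to 15 for any difference. It gave 0 to 6 for replicate 2 against 1, 10 to 19 for replicate 2 against 3, and 0 to 0 for the rest. Over all genes the ranges for those 5 were 279 to 775, 796 to 2578, 874 to 3130, 1 to 1122 and 1691 to 3918. The cause was not tested.

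With the replicate block, 1 member was called for MeVa2.1 against MeVa2.2. Same-numbered libraries were not all paired for MeVa2.2.dOVA with MeVa2.2 (correlations 0.0194, 0.674 and 0.536) and MeVa2.1.dOVA with MeVa2.2.dOVA (0.0373, 0.54 and 0.435), where the replicate block gave 1 call (Srebf1, lower) and 7 calls, all higher (Sqle, Fdft1, Ebp, Pmvk, Srebf1, Srebf2 and Scd1, beside 1737 of all genes higher). It changed no other count of members. Over all genes DESeq2 called 394 for MeVa2.1.dOVA against MeVa2.1, 974 for MeVa2.2.dOVA against MeVa2.2, 1207 for the parents, 2428 for the dOVA lines and 272 for the difference of differences, where edgeR called 68, 278, 627, 1574 and 12, and the replicate block 364, 1084, 1330, 3079 and 118. A fit to the 6 libraries compared called 25, 5, 397 and 1025 for the first 4. Libraries left out and thinning for the replicate numbers were chosen after seeing the data. Members with few reads, such as Idi1, limit what small differences can be seen.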
